A study of Mus musculus with 7 samples.

Results

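The cells described here are labelled epithelial pregranulosa (EPG) cells of the E14.5 mouse ovary, with a high count of Gng13, which encodes a gamma subunit of heterotrimeric G proteins. The label is a name only, since the origin of the chosen cells was not traced in these data. They were chosen by measured values, namely their counts of unique molecular identifiers (UMIs, each a tag of 1 captured RNA molecule) in the E14.5 library. A cell was taken if it had at least 1000 genes, at least 5 UMIs of Gng13, 0 of Foxl2, at least 2 of Wnt6 and Kitl together, 0 of Pax8, at most 1 of Upk3b and at most 1 of the germ cell genes Dazl and Ddx4 together. This gave 1750 cells of the 11060 in the library with at least 200 genes, or 24.6% (23.6 to 25.7) of the 7104 somatic cells with at least 1000 genes, where somatic means at most 1 UMI of Dazl and Ddx4. They are called Gng13-high cells below and members in the plots. The other 6452 somatic cells of the library were the first comparator.

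The series is a single-cell atlas of the gonads of wild-type, untreated C57BL/6J mice, with 1 10x Genomics library from pooled gonads at each of 7 ages, of which E11.5 is the first, P5 the last and E14.5 the third. The tissue was dissociated with trypsin, for the same time at E14.5 and E16.5, for less at earlier and for longer at later ages. The E14.5 library held 87563864 UMIs, with a median of 6349 per cell. Since there was 1 library at each age and cells of a library are not replicates, no test between groups of cells was possible, and each statement below describes these libraries. Levels are counts per 1000000 UMIs (CPM), with the UMIs of a gene and the UMIs of all genes each summed over a class. Levels and shares of cells are given with 95% exact intervals, and a ratio of 2 levels with the interval conditional on their summed UMIs. All intervals cover counting error only. The genes used to choose the cells are not findings, and the other genes of the same cells come from the same counts, so they are a description too.

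In the fetal ovary, pregranulosa (PG) cells are the somatic supporting cells that surround germ cells and later become the granulosa cells of follicles. The name BPG cells is used for PG cells that stem from bipotential precursors of the early gonad. EPG cells are those that enter the ovary from its surface epithelium, and they carry the Wnt-pathway receptor Lgr5. The forkhead factor Foxl2 marks differentiating PG cells, Wnt4 is the ovarian Wnt ligand, and Kitl is the ligand of the Kit receptor on germ cells.

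The Gng13-high cells had between 1891 and 60456 UMIs per cell, with a median of 6595, and a median of 2374 genes. Gng13 itself, fixed by the choice, ranged from 5 to 52 UMIs with a median of 12. The other label markers were sparser. Lgr5 ranged from 0 to 7 UMIs with a median of 0 and was not counted in 990 cells. Cst12, a cystatin gene, ranged from 0 to 20 with a median of 0, and Calb1, which encodes the calcium-binding protein calbindin, from 0 to 12 with a median of 0. None of these 3 markers was counted in 436 cells (24.9%), 1 in 759 (43.4%), 2 in 449 (25.7%) and all 3 in 106 (6.06%). A count of 0 depends on depth, so these counts do not show whether the label holds for each cell. Xist was counted in 1750 of the 1750 cells and the Y-linked genes Ddx3y, Eif2s3y, Kdm5d and Uty in 0.

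Gng13 is at chr17:25717171-25719406 on the plus strand (GRCm38, GENCODE vM21) and overlaps Chtf18 on the opposite strand, which was at 3.34 CPM in the Gng13-high cells. Cst12 (chr2:148789361-148793546) and Cst8 (chr2:148798785-148805595), a further cystatin gene, are neighbours on the plus strand with 0 annotated genes and 5239 bases between them. Both were high in these cells. The 250 bases before each start that RefSeq gives (GRCm38.p6) are shown for Gng13, Cst12 and Cst8. RefSeq lists 2 starts for Gng13, and its starts differ from those of the gene positions above, so that the second Gng13 window lies within Gng13 and the Cst12 and Cst8 windows run past the starts of those genes given above. Which start was used in these cells was not tested. Capitals mark a match to 1 of the letters searched.
Gng13 first start, chr17:25716922-25717171, plus strand: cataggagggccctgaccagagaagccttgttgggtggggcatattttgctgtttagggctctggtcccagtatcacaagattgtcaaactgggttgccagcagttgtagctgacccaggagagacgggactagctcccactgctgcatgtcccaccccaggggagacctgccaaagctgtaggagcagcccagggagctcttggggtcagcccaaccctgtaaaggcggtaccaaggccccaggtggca
Gng13 second start, chr17:25717278-25717527, plus strand: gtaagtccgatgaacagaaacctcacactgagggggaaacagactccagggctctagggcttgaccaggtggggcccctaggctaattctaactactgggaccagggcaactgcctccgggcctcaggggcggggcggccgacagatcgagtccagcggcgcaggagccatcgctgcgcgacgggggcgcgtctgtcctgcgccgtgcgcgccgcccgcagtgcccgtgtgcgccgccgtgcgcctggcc
Cst12, chr2:148789115-148789364, plus strand: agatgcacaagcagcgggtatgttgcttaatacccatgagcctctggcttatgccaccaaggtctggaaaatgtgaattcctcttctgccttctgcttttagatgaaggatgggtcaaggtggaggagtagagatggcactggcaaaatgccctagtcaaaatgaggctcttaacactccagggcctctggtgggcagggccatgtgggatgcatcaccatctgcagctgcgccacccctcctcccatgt
Cst8, chr2:148798589-148798838, plus strand: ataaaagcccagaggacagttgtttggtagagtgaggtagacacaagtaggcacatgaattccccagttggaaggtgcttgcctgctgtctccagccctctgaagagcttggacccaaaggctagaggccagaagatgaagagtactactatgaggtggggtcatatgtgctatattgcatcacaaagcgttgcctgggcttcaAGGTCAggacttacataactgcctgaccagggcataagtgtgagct
The windows were searched on both strands for 5 motifs. The nuclear receptor half-site AGGTCA was in 14.0% of 32841 RefSeq promoter windows. The letters AGATAA, to which GATA factors bind, were in 9.99%. The TCF/LEF letters CTTTGAT were in 3.21%. A TATAAA box was in 12.4% and the homeodomain letters TAATTA were in 4.84%. The Cst8 window held 1 AGGTCA, which starts 46 bases before the RefSeq start and within Cst8 as placed above, and the other 3 windows held none of these letters. The second Gng13 window had 25 CG dinucleotides, and 10.7% of promoter windows had as many. The first Gng13 window and that of Cst12 had 2 each, and that of Cst8 had 1.

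Against all other somatic cells, the Gng13-high cells had more RNA of the calcium-binding protein gene Calb1, of both cystatins, of the Wnt-pathway receptor Lgr5 and of the growth factor Bmp2, and less of the fibrillar collagens Col1a1, Col1a2 and Col3a1 and of 12 of 19 cell division genes. Calb1 was at 129 CPM (122 to 135) against 34.6 (32.7 to 36.5), a ratio of 3.72 (3.45 to 4.004). Cst12 was at 136 CPM against 40.4 (ratio 3.36, 3.13 to 3.604) and Cst8 at 497 against 175 (2.84, 2.74 to 2.94). The cystatin pair was thus higher at both genes, and Cst8 was counted in 1619 of the 1750 cells, with a median of 3 UMIs and a range of 0 to 16. Lgr5 was at 99.7 CPM (94.2 to 105) against 33.1 (31.3 to 34.9), and Bmp2 at 121 against 39.0 (ratio 3.10, 2.89 to 3.34).

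A gene was counted as higher or lower when its levels, with 10 CPM added to each, differed at least 2-fold, among genes at 20 CPM or more in 1 of the classes. By this rule 39 of 5978 genes (0.652%) were higher in the Gng13-high cells than in all other somatic cells and 143 (2.39%) were lower. Since the same counts chose the cells, nothing is read from these shares. Among the higher genes with the largest ratios were also the lipoprotein gene Apoc1 (232 against 86.7 CPM), the elongation factor gene Tcea3 (145 against 57.2), neuritin (Nrn1, 253 against 108), the homeobox gene Irx3 (324 against 141), Prcd (337 against 150), Ccdc61 (110 against 44.2) and 4930523C07Rik (113 against 34.3). Nrn1 and Prcd overlap genes on the opposite strand, Fars2 at 45.6 CPM and Cygb at 62.4 CPM. The LIM homeobox gene Lhx9, which is needed for the gonad to form, was at 308 CPM against 141 and ranged from 0 to 14 UMIs per cell with a median of 2. Cdkn1c, an inhibitor of cyclin-dependent kinases, was at 2786 against 1353 CPM, with a median of 17 UMIs and a highest count of 93, and was not counted in 5 cells.

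The growth factor pleiotrophin (Ptn) was at 55.1 CPM in the Gng13-high cells against 354 in the other somatic cells, which is 6.43 times as high (5.95 to 6.96). The adhesion molecule Ncam1 was at 13.9 against 121 CPM and Pclaf, a partner of the replication clamp, at 24.1 against 176. The fibrillar collagens Col1a1 (21.4 against 159), Col1a2 (34.8 against 181) and Col3a1 (37.7 against 206), the proteoglycan Dcn (12.3 against 105), Sparcl1 (17.9 against 122), the Wnt-binding protein Sfrp1 (23.3 against 126), Igfbp5 (93.7 against 414) and smooth muscle actin Acta2 (20.7 against 107) were lower as well. Car2, at 15.0 against 122 CPM, was at 1260 CPM in the 336 cells with at least 20% haemoglobin UMIs, which are among the other somatic cells.

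The other somatic cells are a mixture, so levels were also taken in classes set by marker counts. Beside the Gng13-high cells these were, with the same conditions on Wnt6, Kitl, Pax8, Upk3b and germ genes, 389 Foxl2-positive Gng13-high cells (Foxl2 at least 1 UMI, Gng13 at least 5), 528 Foxl2-positive Gng13-low cells (Gng13 at most 1), 793 Foxl2-zero cells with 1 to 4 UMIs of Gng13 and 634 Foxl2-zero cells with 0. Further classes were 166 surface epithelial cells (Upk3b and Krt19 at least 2 each), 256 Pax8-positive cells, 847 mesenchymal, 85 endothelial, 20 immune and 336 erythroid cells and 2509 germ cells. Of the other somatic cells 2511 were in no class and 104 in more than 1.

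Lgr5 was highest in the Gng13-high cells at 99.7 CPM and in the Foxl2-positive Gng13-high cells at 93.4 (82.99 to 105), whose intervals overlap. Surface epithelial cells followed at 70.2 CPM (58.9 to 83.1) and intermediate Foxl2-zero cells at 50.8. The Foxl2-positive Gng13-low cells, the Foxl2-zero Gng13-zero cells and the Pax8-positive cells came next at 27.7, 23.8 and 22.9 CPM with overlapping intervals. Mesenchymal cells were at 2.40 CPM and germ cells at 2.99, and 0 Lgr5 UMIs were counted in endothelial cells, which allows up to 4.06 CPM. Cst12 had a like order, from 136 CPM through 109 in Foxl2-positive Gng13-high, 75.9 in intermediate and 70.7 in surface epithelial cells to 16.2 in Foxl2-positive Gng13-low cells. Calb1 was at 129 and 98.9 CPM in the Gng13-high classes without and with Foxl2, at 33.3 in surface epithelial and at 20.3 in Foxl2-positive Gng13-low cells.

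Because depth differs between classes, shares of cells with a UMI were also taken with each cell thinned at random to 2000 UMIs. Lgr5 was then counted in 17.5% (15.7 to 19.4) of 1749 Gng13-high cells, against 43.4% without thinning. The share was 6.82% in Foxl2-positive Gng13-low, 12.7% in surface epithelial and 0.592% in mesenchymal cells. For Cst12 the thinned shares in the same order of classes were 17.2, 2.27, 10.8 and 0.474%, and for Calb1 19.7, 3.03, 6.63 and 0.711%. Mesenchymal cells served as the background, since free RNA and misplaced cells can give a UMI in cells that do not express a gene, and all 3 markers were above their mesenchymal share in Gng13-high cells. For Gng13 that background was higher, with a thinned share of 5.81% in mesenchymal and 15.9% in germ cells, whose median depths were 5693 and 13216 UMIs before thinning.

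**Figure D1:**
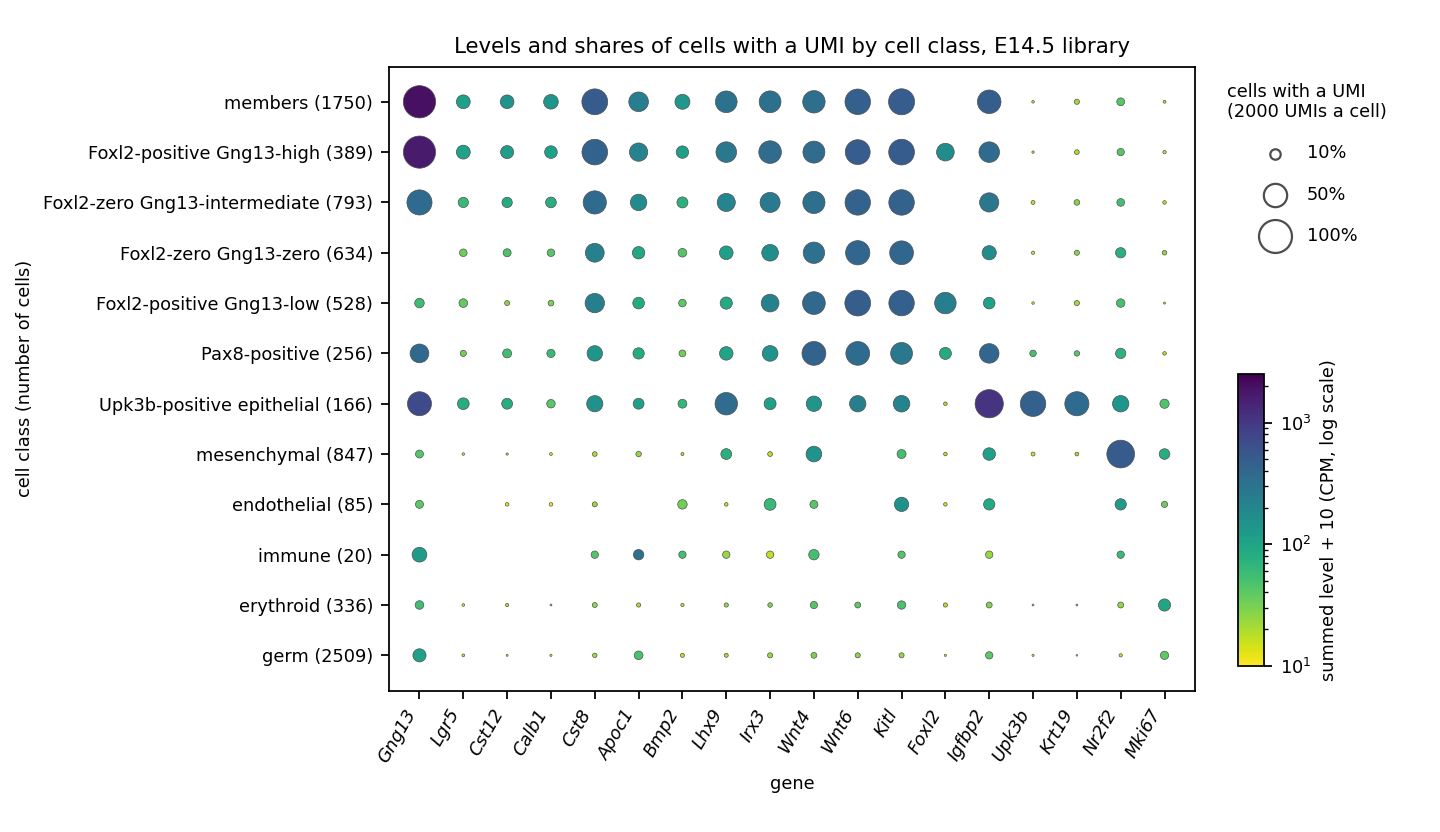
Genes (x axis) by cell class (y axis, number of cells in parentheses) in the E14.5 library; colour gives the summed level in CPM with 10 added on a log scale and dot area the share of cells with a UMI after thinning to 2000 UMIs per cell. Lgr5 was at 99.7 CPM in the Gng13-high cells (members) and 93.4 in the Foxl2-positive Gng13-high cells, Cst8 at 497 and 440.1, and Igfbp2 at 478 and 359.

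The comparison with Foxl2-positive Gng13-low cells sets the Gng13-high cells beside the differentiating PG cells of the same ovary. The Gng13-high cells had more RNA of Cst12, of the insulin-like growth factor gene Igf1 and its binding protein Igfbp2, of Calb1, of Lhx9 and of the heparan sulphate proteoglycan Gpc3, and less of the secreted chaperone clusterin (Clu). Cst12 was at 136 against 16.2 CPM (ratio 8.38, 6.41 to 11.2), Igf1 at 120.0 against 16.48 (7.28, 5.57 to 9.68) and Igfbp2 at 478 against 94.2 (5.08, 4.54 to 5.70). Calb1 differed by 6.33 times (4.98 to 8.18), Gpc3 by 4.13 (3.52 to 4.87), Lhx9 by 3.93 (3.47 to 4.47) and Bmp2 by 3.87 (3.18 to 4.76). Clu was at 222 CPM against 807, which is 3.64 times as high (3.45 to 3.84). In single cells Igfbp2 ranged from 0 to 38 UMIs with a median of 2. Also lower in the Gng13-high cells were the glutathione transferase Gstm6 (184 against 620 CPM), the dehydrogenase Hsd17b11 (48.7 against 179), the tubulin Tuba1a (183 against 608), the repressor Bhlhe41 (35.4 against 133) and Col3a1 (37.7 against 171).

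Of 6196 genes compared, 55 (0.888%) were higher and 116 (1.87%) lower in the Gng13-high cells than in Foxl2-positive Gng13-low cells. The median ratio of all genes was below 1 here, with a shift of -0.12 (log2) by the median of ratios, and after this shift was taken out the counts were 80 higher and 92 lower. The genes that the PG cells of both classes share differed less. Wnt4 was at 327 against 386 CPM, and follistatin (Fst), an activin-binding protein, at 755 against 1181. Wnt6 was at 463 against 477 and Kitl at 493 against 461, which the choice of both classes sets in part.

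Beside the surface epithelial cells, the Gng13-high cells had more RNA of Fst, Bst2 and Gatm, and less of S100a6. Fst was at 755 against 105 CPM (ratio 7.18, 6.25 to 8.30), the membrane protein gene Bst2 at 406 against 37.5 (10.8, 8.59 to 13.9) and Gatm, an enzyme of creatine synthesis, at 149 against 19.2 (7.74, 5.60 to 11.03). The others of the 8 largest ratios were the long noncoding RNA AC167229.1 (679 against 113 CPM), Phlda1 (232 against 34.3), 4930523C07Rik (113 against 14.6), Akr1cl (161 against 28.1) and the cell cycle regulator Rgcc (101 against 15.1). Keratin 19 (Krt19) was at 13.1 CPM against 357, which is no finding, since the epithelial cells were chosen by their Krt19 count. Krt19 was not counted in 1649 Gng13-high cells. The calcium-binding protein S100a6 (4.89 against 187 CPM), Dcn (12.3 against 265), Tm4sf5 (8.31 against 187), Pclaf (24.1 against 300), the EGF-repeat protein Dlk1 (42.8 against 362) and Col3a1 (37.7 against 275) were lower too. Of 6187 genes 169 (2.73%) were higher and 213 (3.44%) lower in the Gng13-high cells.

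The levels of named genes were then set side by side in the 3 classes. Lhx9 was at 308 CPM in the Gng13-high cells, 351 in surface epithelial and 78.3 in Foxl2-positive Gng13-low cells, and Igf1 at 120.0, 115 and 16.48. Igfbp2 and Gpc3 lay between, with 478 and 198 CPM against 1084 and 341 in the epithelium and 94.2 and 48.0 in the Foxl2-positive Gng13-low cells. Clu and Gatm lay between in the other direction, at 222 and 149 CPM against 60.3 and 19.2 in the epithelium and 807 and 424 in the Foxl2-positive Gng13-low cells. Cst8, at 497 CPM, and Calb1, at 129, were above both classes (147 and 226 CPM for Cst8, 33.3 and 20.3 for Calb1).

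**Figure D2:**
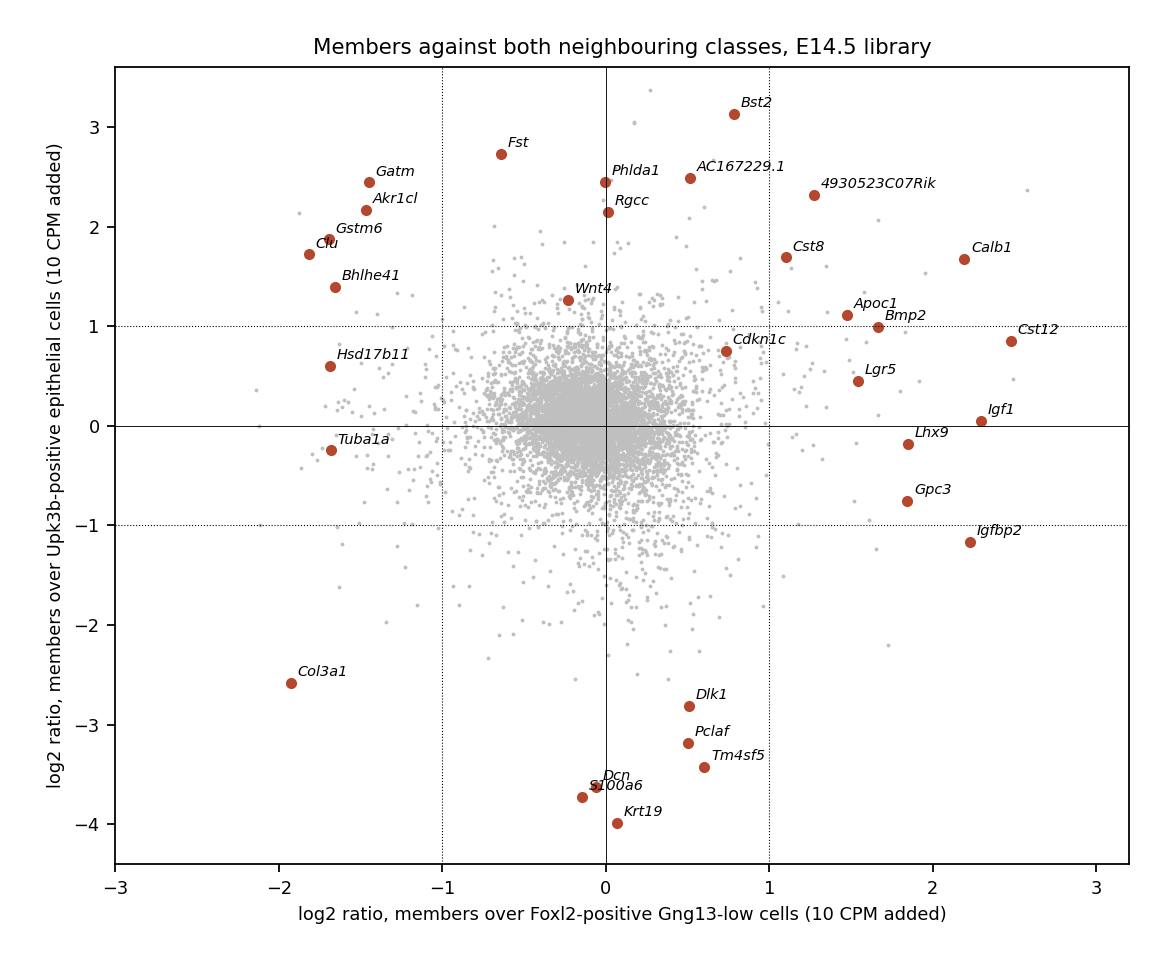
Each point is a gene of the E14.5 library, with the log2 ratio of the Gng13-high cells (members) over Foxl2-positive Gng13-low cells on the x axis and over surface epithelial cells on the y axis (10 CPM added; dotted lines mark a 2-fold difference). Calb1 and Cst8 are at the upper right, S100a6 and, by the choice of the epithelial class, Krt19 at the bottom, and Clu and Gatm at the upper left.

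Few genes separated the Gng13-high cells from those that differ in the Foxl2 condition alone. Between the Gng13-high cells and the 389 Foxl2-positive Gng13-high cells, 2 of 5919 genes (0.0338%) were higher in the former and 1 (0.0169%) lower. The lower gene was Foxl2, by construction, and the higher genes were the embryonic globins Hbb-y (1086 against 149 CPM) and Hba-x (89.99 against 15.1). Among the Gng13-high cells 29 had at least 1% haemoglobin UMIs and the highest had 56.9%. Smaller differences were seen for Clu, at 222 (214 to 230.3) against 326 CPM (307 to 347), Fst (755 against 1063), Igfbp2 (478 against 359) and Calb1 (129 against 98.9).

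Among the 2139 cells with at least 5 Gng13 UMIs that met all other conditions, 389 (18.2%, 16.6 to 19.9) had a Foxl2 UMI, against 5.24% when each cell was thinned to 2000 UMIs, so a count of 0 depends on depth. Without the Foxl2 condition, the Foxl2 level was 93.8 CPM (86.1 to 102) at 0 Gng13 UMIs, 72.3 at 1 to 2, 48.7 at 3 to 4, 44.3 at 5 to 6, 31.98 at 7 to 9 and 31.7 (28.3 to 35.3) at 10 or more. The level was thus lower in cells with more Gng13, but it was above the 2.35 CPM of germ cells and the 6.28 of mesenchymal cells in every bin. After thinning to 2000 UMIs the share of cells with a Foxl2 UMI was 15.6% (13.4 to 17.98) at 0 Gng13 UMIs and 4.61% (3.57 to 5.85) at 10 or more.

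The 145 Foxl2-zero cells with exactly 4 Gng13 UMIs, just outside, had Lgr5 at 61.5 CPM, Cst12 at 107, Calb1 at 76.6, Cst8 at 435 and Clu at 297. The 145 cells with exactly 5, just inside, had Lgr5 at 84.3, Cst12 at 132, Calb1 at 136, Cst8 at 464 and Clu at 290.1. The intervals of these cells just inside and just outside the threshold were apart for Calb1 (113 to 163 against 59.3 to 97.5) and overlapped for the other 4 genes. At the limit on Upk3b, Krt19 was at 46.0 CPM in the 61 cells with 1 UMI and at 97.9 in the 40 cells with 2. The 52 cells with 1 UMI of Wnt6 and Kitl together had Lgr5 at 99.1 CPM and the 117 with 2 had 80.4. Of all cells left out by 1 condition alone, 1427 missed on Gng13, 389 on Foxl2, 160 on Upk3b, 87 on germ genes, 73 on Wnt6 and Kitl, 38 on Pax8 and 5 on the number of genes.

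Over Foxl2-zero cells taken in bins of Gng13, from 0 UMIs (634 cells) to 10 or more (1140 cells), Lgr5 went from 23.8 CPM (19.0 to 29.4) to 107 (100.2 to 114), Bmp2 from 33.9 to 131, Lhx9 from 99.7 to 318, Igfbp2 from 162 to 491 and Cst8 from 219 to 507. These 5 genes were at their highest in the top bin. Calb1 was at 77.0 CPM at 3 to 4 UMIs and between 123 and 130 in the 3 bins of the Gng13-high cells. Clu went from 592 (567 to 618) to 202 CPM (193 to 212) and Akr1c14, an aldo-keto reductase gene of steroid metabolism, from 39.2 to 4.20. Wnt4 stayed between 317 and 341 CPM across the 6 bins. Median UMIs also went from 5338.5 in the lowest to 6793 in the highest bin. When the bins were set by Gng13 CPM in each cell instead, Lgr5 went from 27.8 to 125 CPM and Clu from 548 to 213.

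The lowest bins held other cells beside PG cells. The 8 endothelial markers summed to 394 CPM at 0 Gng13 UMIs, with Cldn5 the most abundant at 89.9, to 385 at 1 to 2 UMIs and to 35.7 at 10 or more. The 8 mesenchymal markers summed to 389 and 167 CPM in the lowest and highest bins, with Col3a1 (140 CPM) and Dlk1 (38.7 CPM) the most abundant. Without cells that had a UMI of Cldn5, Pecam1 or Cdh5 or at least 2 of Nr2f2, Lgr5 went from 27.7 to 109 CPM, a ratio of 3.95 in place of 4.50, and Clu from 679.7 to 206. Wnt4 was then at 359 CPM in the lowest and 328 in the highest bin.

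**Figure D3:**
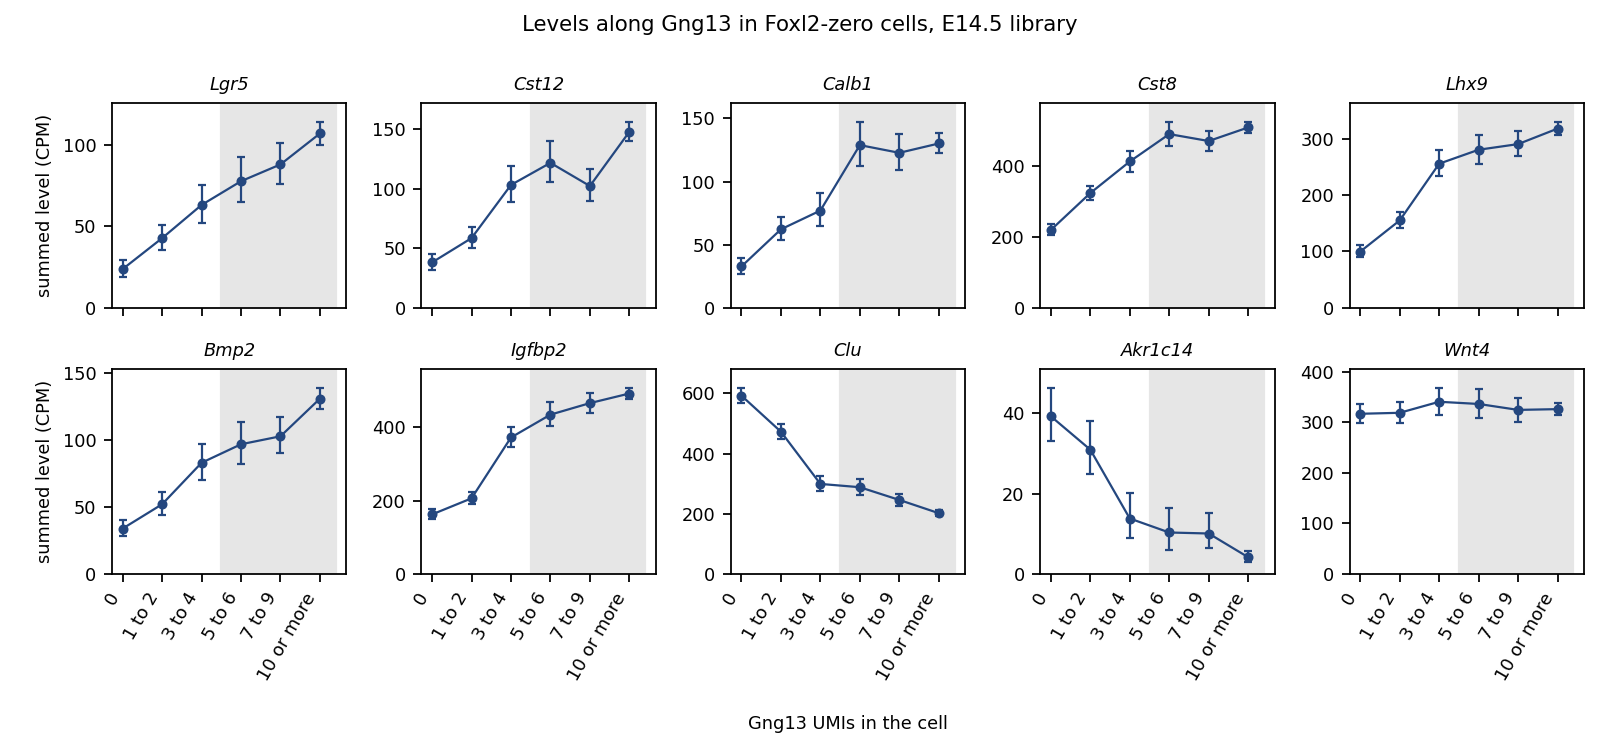
Summed level in CPM (y axes, from 0) of 10 genes in Foxl2-zero cells of the E14.5 library by the Gng13 UMIs of the cell (x axes); bars are 95% exact Poisson intervals and the shaded bins are the Gng13-high cells. Lgr5 goes from 23.8 to 107 CPM, Clu from 592 to 202, and Wnt4 stays between 317 and 341.

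Over the 12 classes of the library, the genes whose level followed Gng13 most closely among 1390 at 100 CPM or more in the Gng13-high cells were Ccdc61 (Pearson r of log2 levels 0.79), Cst12 (0.74), the transcription factor gene Mycn (0.72), Calb1 (0.69), Bmp2 (0.69), Tcea3 (0.67), Pdlim4 (0.67) and Actr6 (0.66). The classes share a library, 5 of them were set by Gng13 counts and the genes compared had to be high in the Gng13-high cells, so the order describes these classes and supports nothing further. Mycn was at 123 CPM in the Gng13-high cells, 32.1 in Foxl2-positive Gng13-low and 114 in surface epithelial cells.

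Gene lists were read by their counts and their median log2 ratio. Over all genes compared, this median was 0.02 against all other somatic cells, -0.10 against Foxl2-positive Gng13-low cells and 0.03 against surface epithelial cells. The shares of all genes compared that were higher and lower were 0.652 and 2.39%, 0.888 and 1.87%, and 2.73 and 3.44% in the same order. In a short list 1 gene alone is a larger share than these, so nothing is read about a list with 0 or 1 gene past 2-fold. Of the study's EPG genes, 5 of 8 were higher and 0 lower against all other somatic cells (Gng13, by the choice, Lgr5, Apoc1, Cst8 and Bace2, median 1.34), and 7 of 8 higher against Foxl2-positive Gng13-low cells (median 1.48). Of its BPG genes 8 of 8, with Foxl2 by the choice, were lower against the Foxl2-positive Gng13-low cells (median -1.60). The study chose both lists on these same cells, so they are not independent evidence of a direction.

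Among G protein subunits, Gng13 was higher, by the choice, and Gng11 lower (7.58 against 50.1 CPM) of 8 compared with all other somatic cells, and Gng2 was at 37.1 CPM against 8.83 in Foxl2-positive Gng13-low cells. Of 4 cystatins, Cst12 and Cst8 were higher and 0 lower. Cst3, the widespread cystatin C, was at 528 CPM, and other genes of the cystatin block were near 0 (Cst9 4.56, Cst13 2.61 and Cst11 0.897 CPM). These 3 were below the 20 CPM needed for the comparison, so that no difference could be counted for them. Of 10 EF-hand calcium-binding genes Calb1 was higher and S100a6 lower.

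In the Wnt pathway, a list of Wnt ligands and R-spondins also held Porcn and Wls, which are not ligands. Of its genes 0 of 5 compared differed 2-fold from all other somatic cells. Of the other Wnt lists, 1 of 6 receptors was higher (Lgr5) and 1 of 7 targets and inhibitors was lower (Sfrp1). Rspo1, the R-spondin ligand of Lgr5, was at 171 CPM in the Gng13-high cells, 105 in Foxl2-positive Gng13-low and 194 in surface epithelial cells. The Wnt target genes Sp5, Axin2 and Lef1 were at 119, 63.7 and 59.6 CPM. Against the epithelium the ligands Wnt4 (327 against 130 CPM) and Wnt6, which the choice used, were higher and Wnt5a was lower. Of 9 genes of BMP signalling 1, Bmp2, was higher and 0 lower than in all other somatic cells, and of 4 Notch genes 0 differed in any of the 3 comparisons. Nothing is read about the lists from such counts of 0 or 1.

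Of 17 transcription factors of the gonad, Lhx9 and Irx3 were higher and Foxl2, by the choice, and Nr2f2 lower than in all other somatic cells. Against Foxl2-positive Gng13-low cells only Lhx9 was higher, and Irx3 was not past 2-fold. Against the epithelium only Irx3 was higher. Wt1 was at 427 CPM, Gata4 at 109 and Nr5a1 at 49.2 in the Gng13-high cells. Cell division genes were the list with the lowest median, at -1.32 against all other somatic cells (0 of 19 higher, 12 lower) and -1.50 against surface epithelial cells (0 of 22 higher, 15 lower), while 0 of 9 differed 2-fold from Foxl2-positive Gng13-low cells (median 0.39). Mki67, a marker of cycling cells, was at 4.81 CPM, against 35.9 in the epithelium and 3.83 in Foxl2-positive Gng13-low cells, and was not counted in 1711 Gng13-high cells. Cdkn1c was the only 1 of 9 cell cycle inhibitors that was higher than in all other somatic cells. Against Foxl2-positive Gng13-low cells 0 of 9 inhibitors were past 2-fold, so Cdkn1c did not set the Gng13-high cells apart from these. Against the epithelium 2 of 9 were higher, Cdkn1b and Btg1, and Cdkn1c was not past 2-fold.

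Of 12 genes of a list of keratins, junction genes and other epithelial genes, only Upk3b, by the choice, was lower than in all other somatic cells. Against the epithelium 5 of 14 were lower (Krt7, Krt18, Upk1b and, by the choice of the classes, Krt19 and Upk3b) and 1 higher (Cgn). Krt8 was at 130.2 CPM against 237 and was not counted as lower. Against Foxl2-positive Gng13-low cells Krt7 was higher and Tjp1 lower of 10. Krt7 was at 36.8 CPM (205 in the epithelium, 4.12 in Foxl2-positive Gng13-low cells). Aldh1a1, an enzyme of retinoic acid synthesis, was at 198 CPM and higher than in the epithelium. Inhibin, activin and AMH pathway genes had 0 of 5 past 2-fold against either of the other comparators and 2 of 5, Inha and Fst, higher than in the epithelium. Matrix genes had 4 of 18 lower than in all other somatic cells (Col1a1, Col1a2, Col3a1 and Fn1). Metallothioneins Mt1 and Mt2 were higher than in Foxl2-positive Gng13-low cells, with Mt1 at 960 against 418 CPM. Against the epithelium Mt2 was lower, at 113 against 279 CPM, and Mt3 higher, at 34.7 against 6.76. Of 79 ribosomal protein genes 0 differed 2-fold, and their medians were 0.14, 0.33 and -0.11 in the 3 comparisons.

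Markers of other cells were counted in the Gng13-high cells as a check of the label. Of 8 supporting-cell markers 7 were at 20 CPM or more, with Foxl2 at 0 and Wnt6 and Kitl (463 and 493 CPM) present by the choice. The 5 markers that no class was chosen by summed to 1647 CPM, against 1950 in Foxl2-positive Gng13-low and 458 in surface epithelial cells. Of 7 surface epithelial markers 1 was at 20 CPM or more (Krt7). Upk3b was limited by the choice and the epithelial class was chosen by Upk3b and Krt19, and the 5 other markers summed to 44.0 CPM against 306 in the epithelium. Endothelial markers summed to 39.6 CPM (most abundant Egfl7, 18.2), immune markers to 5.05 with Ptprc at 0, germ markers to 59.5 (Dppa5a, 13.6), Sertoli markers to 90.4 (Aard, 49.5) and steroidogenic markers to 74.8 (Hsd3b1, 47.7) with Insl3 at 0. Mesenchymal markers had 5 of 8 at 20 CPM or more and summed to 182 CPM, led by Dlk1 at 42.8, against 907 in all other somatic cells. Of 7 rete and mesonephric markers 2 were at 20 CPM or more, with Pax8 at 0 by the choice and Emx2 at 98.5 CPM, and pericyte markers summed to 36.1 CPM, led by Acta2 at 20.7.

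Erythroid markers summed to 7443 CPM in the Gng13-high cells, with Hbb-bs the most abundant at 2470, to 50218 in all other somatic cells, 6814 in Foxl2-positive Gng13-low cells and 1028 in the epithelium. Without the cells of at least 1% haemoglobin on both sides, 35 genes were higher and 139 lower than in all other somatic cells. The doublet caller Scrublet marked 32 Gng13-high cells (1.83%), against 125 of the other somatic cells (1.94%) and 216 of the 2509 germ cells (8.61%). Of the cell barcodes 71 also occurred in another library of the series. Without the marked cells, which left 1718 Gng13-high cells, 41 genes were higher and 150 lower than in all other somatic cells, with 39 and 143 of them shared with the counts given above. The part of shared barcodes in the levels was not tested.

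The Gng13-high cells varied among themselves along Igfbp2, whose counts were picked for a split after their values had been seen. In 618 cells Igfbp2 had at least 4 UMIs, in 769 it had 1 to 3 and in 363 it had 0, with median depths of 7354.5, 6400 and 5771 UMIs. The part of depth in what follows was not tested. In this order of groups, Clu was at 134 (124 to 145), 232 (219 to 245) and 399 CPM (373 to 427), Fst at 537 (517 to 558), 823 and 1091, Gatm at 95.4, 166 and 231, Gstm6 at 119.8, 195 and 307 and Akr1c14 at 2.23, 5.96 and 15.4. The opposite order was seen for the growth factor midkine (Mdk) at 361, 245 and 170.2 CPM, Mt2, a metallothionein, at 157, 97.0 and 51.0, Gpc3 at 232, 182 and 158 and the adhesion molecule Alcam at 131, 99.7 and 82.3. Clu, Gatm, Gstm6 and Akr1c14 of the first set were also at higher levels in Foxl2-positive Gng13-low cells than in the Gng13-high cells as a whole.

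Lgr5, Calb1, Wnt4 and Gng13 differed little across that split. Lgr5 was at 103 (94.4 to 112), 102 (93.9 to 111) and 85.1 CPM (73.2 to 98.4), Calb1 at 120.4, 135 and 132, Wnt4 at 317, 333 and 335 and Gng13 at 1930, 2000 and 2101. The intervals of Lgr5 and those of Wnt4 overlapped between the groups. Over the 1750 cells, log levels of Igfbp2 correlated at -0.33 with those of Clu, -0.30 with Gstm6 and Fst, -0.23 with Gatm and -0.12 with Akr1c14. The values were 0.18 with Mdk and Mt2, 0.16 with Gpc3 and Alcam and 0.01 with Gng13. These are weak values in sparse counts and no more than a description. By Lgr5 count (0, 1, and 2 or more UMIs in 990, 454 and 306 cells), Mt2 was at 80.5 (73.8 to 87.5), 149 (136 to 163) and 157 CPM (141 to 174). Bmp2 was at 105, 136 and 146 CPM, Akr1cl at 189, 138 and 115, and Gng13 at 1918, 2103 and 2043 in the same groups. In the 29 cells with at least 1% haemoglobin UMIs Mt2 was at 341 CPM (276 to 418), against 108 in the other 1721.

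**Figure D4:**
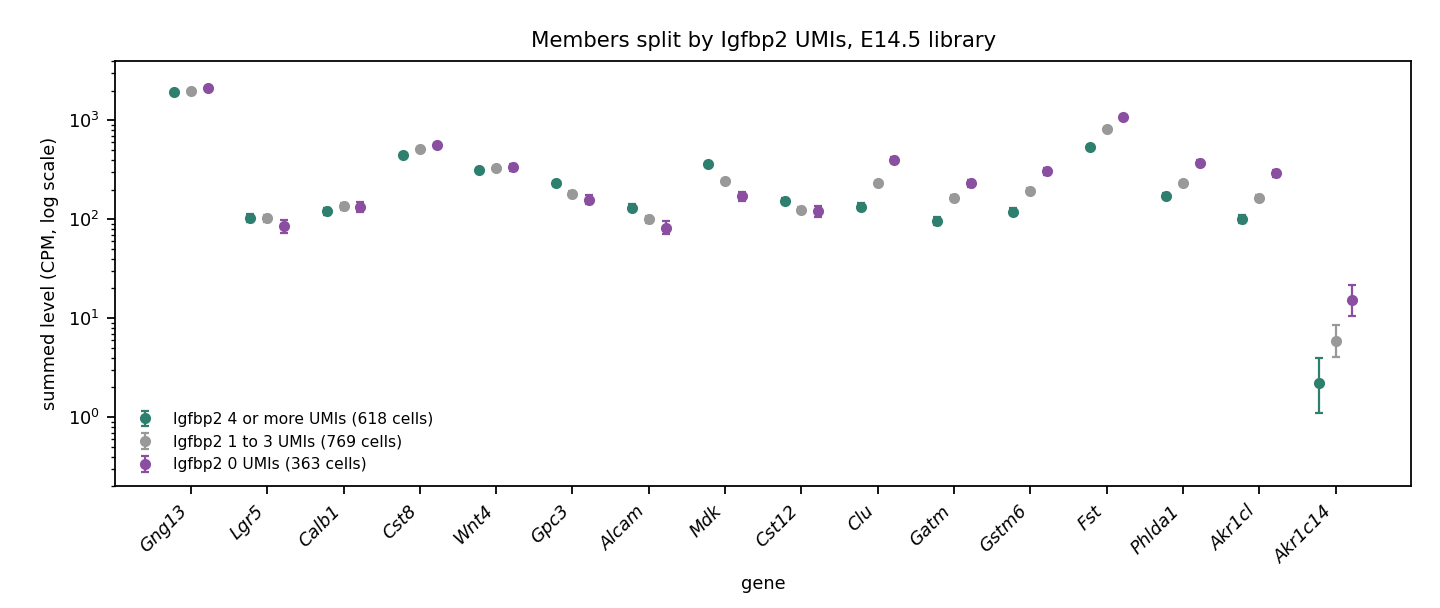
Summed level in CPM (y axis, log scale) of 16 genes (x axis) in 3 groups of Gng13-high cells (members) set by Igfbp2 UMIs; bars are 95% exact Poisson intervals. Clu goes from 134 to 399 CPM and Mdk from 361 to 170.2 from the group with most Igfbp2 to that with none, while Lgr5 is between 85.1 and 103.

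The same conditions were then applied to the other libraries. From the first age to the last they were met by 4, 186, 1750, 488, 415, 115 and 50 cells. As a share of somatic cells with at least 1000 genes this was 0.0503, 4.75, 24.6, 6.75, 14.1, 2.42 and 0.953%. The share was highest at E14.5, but depth also differed between libraries, as did dissociation time except from E14.5 to E16.5, E11.5 to E12.5 and P1 to P5, and age and library cannot be told apart. The E16.5 library also shared at most 3 cell barcodes with any other library. By contrast, the E14.5 library shared between 60 (E18.5) and 131 (E11.5) with each library but E16.5. Why the E16.5 library stood apart, and the part of this in the E16.5 shares and levels given here and below, was not tested. The Foxl2 condition weighs on the share. Of the cells that met all other conditions, the share with a Foxl2 UMI was 36.5, 18.2, 51.8, 25.0, 57.9 and 60.3% from E12.5 to P5, and with 2000 UMIs per cell 7.17, 5.24, 16.1, 9.04, 23.8 and 20.6%.

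From E12.5 to P5, Lgr5 in the cells that met the conditions was at 35.9 (28.8 to 44.1), 99.7, 316 (303 to 330), 221, 158 and 176 CPM. In the Foxl2-positive Gng13-low cells of the same libraries it was at 27.2, 27.7, 15.8, 16.2, 10.5 and 2.53 CPM. The levels overlapped within counting error at E12.5 and were apart at each later age. Cst12 was at 36.7, 136, 261, 513, 512 and 869 CPM and in the Foxl2-positive Gng13-low cells at 6.15, 16.2, 56.2, 90.2, 106 and 220, so both classes were at their lowest at E12.5 and at their highest at P5. Calb1 was at 24.2, 129, 246, 132, 38.5 and 6.75 CPM, and at P5 the order was the other way round, with 71.6 CPM in Foxl2-positive Gng13-low cells.

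Krt19 was at 4.43 CPM at E12.5 and 13.1 at E14.5 in the cells that met the conditions and at 107, 155, 142 and 412 in the later libraries, while it was at most 12.8 CPM in the Foxl2-positive Gng13-low cells. At the later ages the conditions thus held cells with an epithelial keratin that was low at E14.5. Mycn was at 62.5 CPM at E12.5, 123 at E14.5 and at most 28.4 in the later libraries. Cdkn1c was lower at each later age, from 3379 CPM at E12.5 through 2786 at E14.5 to 101 at P5. Clu was lower in the cells that met the conditions than in the Foxl2-positive Gng13-low cells at each of these ages, at 42.7, 222, 193, 422, 405 and 252 CPM against 171, 807, 680.3, 888, 1055 and 712. Cst8 was highest at E14.5 (497 CPM), and Wnt4 was at 308, 327, 397, 192, 105 and 90.04 CPM. At E11.5 only 4 cells were found, too few for levels.

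**Figure D5:**
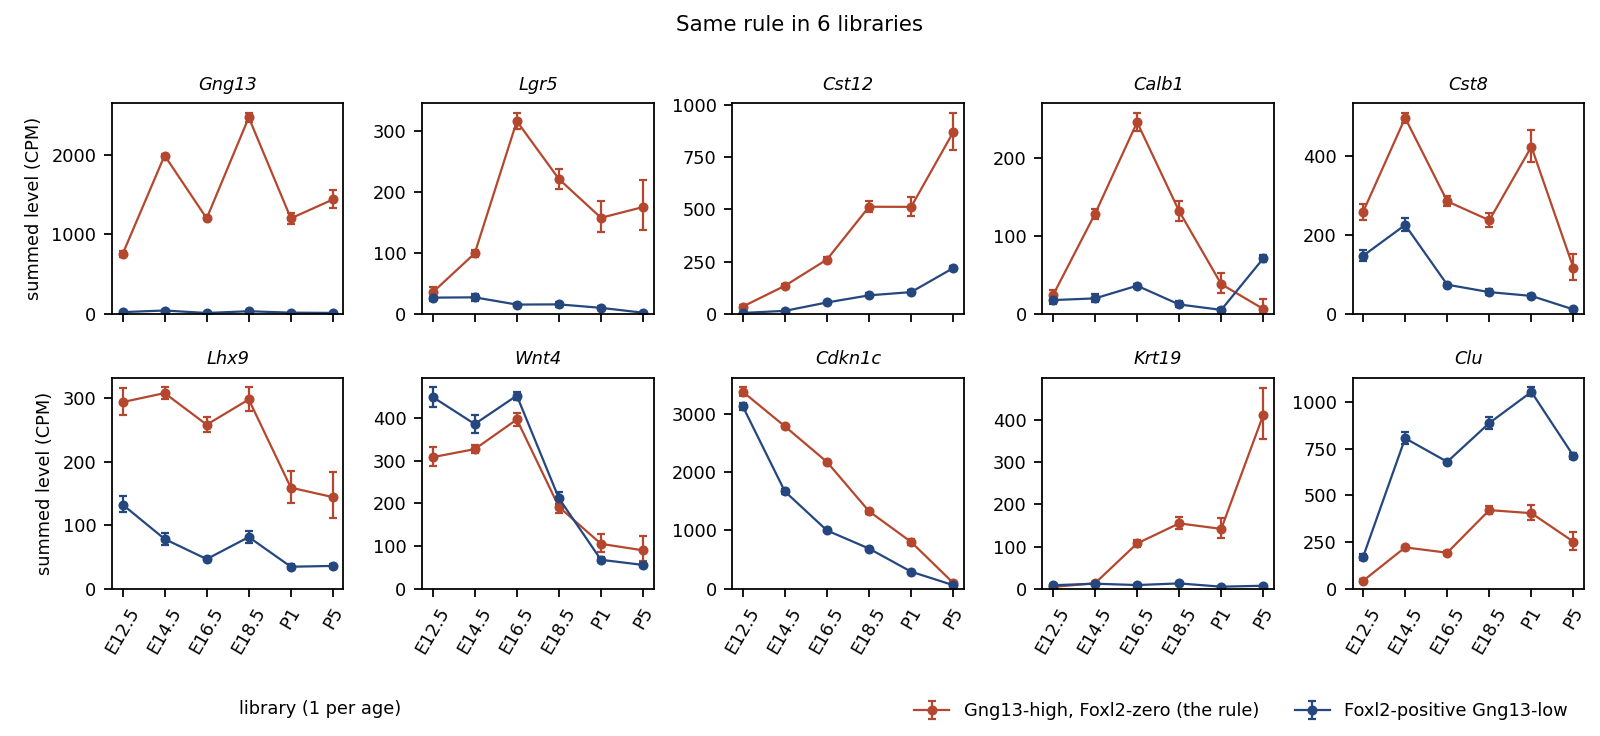
Summed level in CPM (y axes, from 0) of 10 genes in 6 libraries, 1 per age (x axes), in the cells that meet the conditions (red) and in Foxl2-positive Gng13-low cells (blue); bars are 95% exact Poisson intervals. Lgr5 is 99.7 CPM against 27.7 at E14.5 and 316 against 15.8 at E16.5, and Calb1 changes order at P5.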

How the data were processed

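Single-cell RNA was measured in 7 libraries, 1 per age, of which the E14.5 library was used for the members and all 7 for the ages. The authors deposited raw UMI counts, a matrix of genes by cells that came from Cell Ranger 3.1.0 and the 10x reference mm10 3.0 per the labels, over 31053 genes, with no normalization. Cells with at least 200 genes were kept, 11060 of 11417 at E14.5 (357 removed). Doublets were kept.

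Counts were summed per class and scaled to CPM. With 1 library per age no count model or test was run. The members, classes, gene lists and alternatives were chosen with earlier results of these data known. Besides the genes of the conditions and the 4 label markers, genes were named if they had the 12 highest or 12 lowest ratios (10 CPM added) against all other somatic cells or the 8 of each against the other 2 comparators, at 100 CPM or more in the higher class, if they were on a gene list, or if they were among the 8 that followed Gng13 most closely. Haemoglobin and Y-linked genes were not ranked. The comparison with Foxl2-positive Gng13-high cells, the splits of the members and 7 alternatives were added after seeing the data, and genes named from them, Mt2 and Akr1c14 among them, were chosen after their values were seen. Scrublet (30 principal components, seed 1) was run for an alternative. The scripts were tested on simulated data. Results for some genes that these rules would name are not reported here.

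Positions came from GENCODE vM21 on GRCm38. Of 56 named genes 39 had a RefSeq promoter entry. Reads of genes that overlap on opposite strands were taken as the deposited counts assign them. Python 3.11.15, numpy 2.4.6, scipy 1.17.1, pandas 2.3.3, scanpy 1.11.5, matplotlib 3.10.9, R 4.3.3 and edgeR 4.0.16 (TMM factors only) were used.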

Additional observations from a re-analysis of the deposited data

How the results depend on the processing

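The number of Gng13-high cells stayed within 1.5 times of 1750 under every alternative, from 1372 with at least 8 Gng13 UMIs to 2054 with at least 3. Counts of genes past 2-fold depended on the amount added to each level. Against all other somatic cells, 39 genes were higher with 10 CPM added, 78 with 1, 7 with 50, and 19 among genes at 100 CPM or more, and 143 were lower, 34 with 50 and 33 at 100 CPM or more. Against Foxl2-positive Gng13-low cells, 55 were higher, 99 with 1 CPM added, 16 with 50, 19 at 100 CPM or more and 98 with ribosomal, mitochondrial and haemoglobin genes left out of the total, and 116 were lower, 189 with 1, 25 with 50 and 39 at 100 CPM or more. With TMM factors these were 80 higher and 92 lower. Against surface epithelial cells, 169 were higher, 291 with 1, 38 with 50, 63 at 100 CPM or more and 334 after thinning (151 of them shared), and 213 were lower, 338 with 1, 45 with 50, 57 at 100 CPM or more and 349 after thinning (187 shared), for which the cause was not tested. The share of cells with an Lgr5 UMI was 17.5% thinned and 43.4% not thinned. Of 1114 ratios of single genes recomputed, 855 stayed within their interval, 258 moved and 1 reversed: with 1 Foxl2 UMI allowed, the ratio of Foxl2 to the epithelium became 1.58, by construction. No paired analysis was possible because each age has 1 library and no replicate. Depth limits each zero count in a cell, and with 1 library per age the spread between animals is unknown.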
